A study of Caenorhabditis elegans with 6 samples.

Results

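The nuclear hormone receptor genes of Caenorhabditis elegans were described in whole larvae arrested at the first larval stage. Members were the protein-coding genes whose name is nhr- followed by a number, which gave 269 of the 45519 genes listed, 19986 of them protein-coding. The tested strain was linc-133(aqz 3), a line with the allele aqz 3 in the long noncoding RNA gene linc-133, and it was set against N2, the laboratory wild type. Each strain gave 3 libraries of whole animals. Both strains were treated alike: eggs were collected from populations of mixed stage and kept in M9, a buffer without food, for 3 days at 20 °C, so that the hatched larvae stopped growing. The labels do not say what the allele changes in the gene, whether the strain was outcrossed, or if each replicate was grown as its own culture. The p-values therefore reflect how far these particular libraries spread, and that spread may be technical.

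Nuclear hormone receptors are transcription factors that bind DNA through a zinc finger domain and, in many cases, sense small lipid-like molecules through a ligand-binding domain. Caenorhabditis elegans carries far more of them than insects or vertebrates. A few worm receptors have counterparts in most animals and act in moulting, developmental timing and tissue formation. Most of the others descend from relatives of the vertebrate receptor HNF4, and the better known of these set fat metabolism, the response to fasting and the defence against toxins and pathogens. Larvae in first-stage arrest live on stored fat, and the moulting cycle is halted until food arrives.

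Coordinates are those of the deposited table, on WBcel235, the worm genome build named in the submitters' processing notes. Levels are given in FPKM, a count of fragments divided by gene length in kilobases and scaled per library, so they can be compared between genes. Values listed as 3 numbers stand for replicates 1, 2 and 3 in that order. The libraries held 16108063 to 18556695 reads on genes, and at this depth a single read on a gene of 1 kb was worth 0.0485 to 0.0641 FPKM. linc-133 itself was close to the detection limit, with 6, 2 and 2 reads in the mutant libraries and 9, 6 and 5 reads in the N2 libraries. Markers of each main larval tissue were present, as the whole-animal label says. The 6 intestinal markers in the table summed to 899 to 1388 FPKM in the mutant libraries and 1058 to 1261 FPKM in the N2 libraries, and the 7 neuronal markers summed to 1113 to 1194 and 1080.3 to 1265 FPKM in mutant and N2 libraries in that order. The 5 markers of body wall muscle summed to 1691 to 3936 FPKM in the mutant libraries and 2248 to 2504 FPKM in the N2 libraries, and the 4 pharyngeal markers to 529.9 to 864 FPKM in the mutant libraries and 504 to 727 FPKM in the N2 libraries. The 6 vitellogenin genes, yolk genes of adults, stayed at or under 0.536 FPKM in every library. Early embryonic transcripts were present, and their list of 10 summed to 328, 307 and 294 FPKM in the mutant libraries, against 348, 229.6 and 267 FPKM in the N2 libraries. Of the 9 tested, 0 passed after adjustment over all genes. At an unadjusted p under 0.05, 3 were higher in the mutant, against 7.22% of all tested genes. They were vet-1 (2.65-fold, limma adjusted p = 0.121), vet-6 (2.07-fold) and end-1 (2.27-fold), and their part in the receptor differences was not tested. Since whole animals were sequenced, fewer cells of a type and less RNA per cell cannot be told apart.

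Libraries did not differ by strain alone. The mutant libraries stood apart by gene length, and in different directions. Over the 13868 tested protein-coding genes, the log2(FPKM + 1) of genes of 2000 bases or more differed from the median of the other 5 libraries by -0.14, -0.12 and 0.20 in mutant replicates 1, 2 and 3, and that of genes under 1500 bases by 0.10, 0.13 and -0.13. In the N2 libraries all of these medians lay between -0.03 and 0.04. Over the 43 longer receptor genes tested the medians of the mutant libraries were -0.10, 0.02 and 0.10. Replicates 1 and 2 were thus low and replicate 3 high in long coding genes. A list of 11 cytosolic chaperone genes, which help proteins fold under stress, had higher sums in the mutant and the highest in its replicate 3. 10 of the 11 were higher at an unadjusted p under 0.05, against 7.22% of all tested genes, and 0 passed after adjustment over all genes. The summed level was 4169, 5878 and 11912 FPKM in the mutant libraries, against 1921, 1285 and 1174 FPKM in the N2 libraries. The part of gene length and of the chaperone levels in the differences below was not tested. A value without mutant replicate 3 does not test it, since replicates 1 and 2 also stood apart from N2 in both.

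Most of the receptor family was detectable in arrested larvae. Of the 269 genes, 263 had at least 1 read in some library and 226 had a read in every library. Averaged over the 6 libraries, 188 genes reached 1 FPKM (69.9%), close to the 69.4% of all protein-coding genes, and 90 genes reached 10 FPKM. Per library, 186 to 189 receptors reached 1 FPKM in the mutant and 181 to 185 in N2. The family took 0.567% to 0.600% of the reads in the mutant libraries and 0.547% to 0.569% in the N2 libraries. The 15 most abundant members together made up 32.5% of the summed FPKM of the family.

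The remaining 81 genes had a mean under 1 FPKM, and 75 of these still had a read. nhr-259, nhr-146, nhr-201, nhr-185, nhr-140 and nhr-233 had no read in any library. A count of 0 allows up to 3 reads per library, which limits counting error only, so absence is not shown. Reads in N2 alone were found for 6 members, of which nhr-118 had the most with 8 reads over the 3 libraries. Reads in the mutant alone were found for 2 members, nhr-244 with 3 reads and nhr-254 with 2. Such counts are too low to show a difference between the strains.

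The family is unevenly spread over the genome, and so were its levels. Chromosome V holds 167 members, chromosome IV 33, chromosomes I and X 23 each, chromosome II 15 and chromosome III 8. The median level was 21.01 FPKM on chromosome X, 10.5 on III, 7.31 on IV, 4.60 on V, 4.33 on II and 0.184 on I. On chromosome I only 8 of the 23 members reached 1 FPKM, whereas 75.8% of all protein-coding genes of that chromosome did. On chromosome V 122 of the 167 members did (73.1%), against 58.0% of all protein-coding genes there. These are descriptions of single genes in the same libraries and were not tested.

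**Figure D1:**
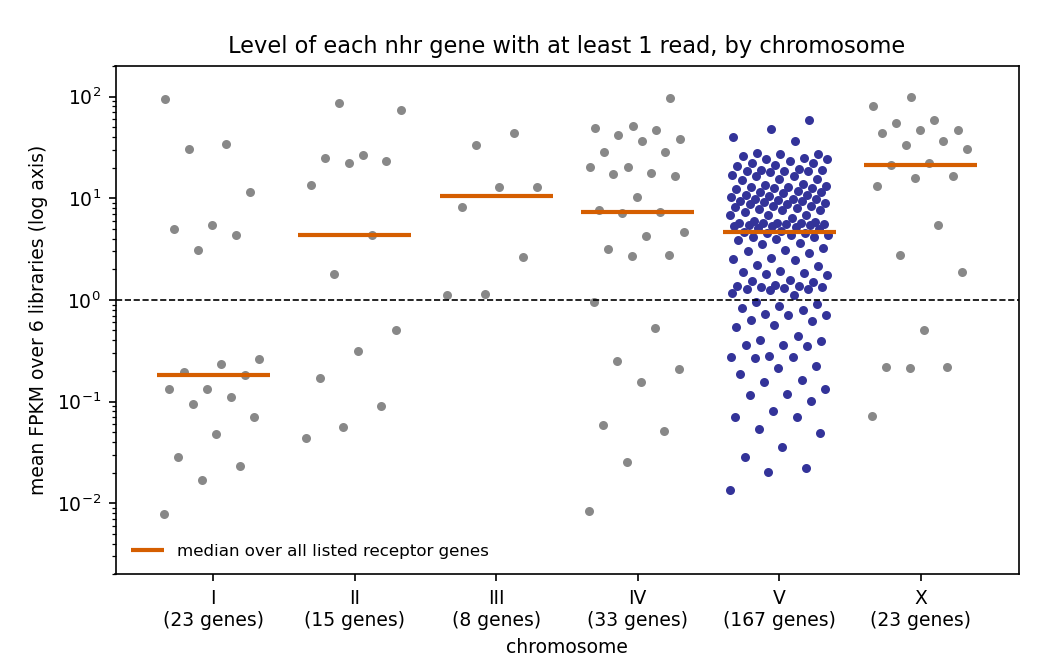
Mean level of each receptor gene with at least 1 read, on a log axis in FPKM over the 6 libraries, by chromosome. Each point is 1 gene (blue on chromosome V, which holds the most), the orange line is the median over all listed receptor genes of the chromosome, and the dashed line marks 1 FPKM; the median is highest on X (21.01 FPKM) and lowest on I (0.184 FPKM).

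Many members sit next to each other. A second member lay within 20 kb of 173 genes and within 5 kb of 144, and 25 groups of at least 3 neighbours were counted, 17 of them on chromosome V. Members with a neighbour within 20 kb had a median of 3.01 FPKM, and the 96 members further apart a median of 7.79 FPKM. In the authors' gene descriptions 222 members carried both the zinc finger and the ligand-binding domain, 15 the zinc finger alone, 7 the ligand-binding domain alone and 25 neither. A mean of 1 FPKM was reached by 164 of the 222, and by 6 of the 15 with the zinc finger alone. Neighbouring receptor genes can be similar in sequence, and how reads that match several copies were counted is not given in the sources used here, so the levels of single members within such groups are uncertain.

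The most abundant receptor by mean level was nhr-17 (gene 191719, chromosome X, 12663760 to 12667854, minus strand), although its N2 libraries taken alone were much lower. It measured 67.9, 139 and 319.7 FPKM in the mutant libraries, against 26.99, 27.5 and 18.3 FPKM in the N2 libraries. nhr-97 followed with 67.7, 109.3 and 95.5 FPKM in the mutant and 103, 101 and 102 FPKM in N2, with mutant replicate 1 the lowest. The third was nhr-49 (gene 172839, chromosome I, 9869632 to 9874680, plus strand), a receptor that switches on genes of fatty acid desaturation. It also switches on fat breakdown in fasting worms, much as PPAR-alpha does in mammals. It measured 78.4, 89.0 and 83.8 FPKM in the mutant libraries, against 104.98, 103.9 and 106 FPKM in the N2 libraries. All 3 N2 values of nhr-49 lay above the mutant values and within a narrow range.

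Below these came nhr-88, nhr-1 and nhr-19. nhr-88 measured 61.4, 80.2 and 143 FPKM in the mutant and 69.6, 85.9 and 84.4 FPKM in N2, and mutant replicate 3 alone stood out. nhr-1 measured 68.5, 72.9 and 98.8 FPKM in the mutant and 82.6, 83.5 and 79.9 FPKM in N2, with overlapping strains. nhr-19 measured 51.9, 65.1 and 76.6 FPKM in the mutant and 83.2, 101 and 66.3 FPKM in N2, and 1 N2 library lay inside the range of the mutant. The next members, nhr-3, nhr-18, nhr-35, nhr-31, nhr-105, nhr-42, nhr-40, nhr-46 and nhr-32, had means between 46.6 and 58.9 FPKM over the 6 libraries. nhr-31, needed for the tubular growth of the excretory cell, measured 44.2, 55.5 and 50.8 FPKM in the mutant and 44.96, 56.97 and 55.7 FPKM in N2. nhr-40, needed in embryos and young larvae for muscle and body form, measured 40.7, 62.9 and 63.3 FPKM in the mutant and 34.6, 42.4 and 40.3 FPKM in N2. Of the 15 most abundant members 6 lie on chromosome X, 4 on IV, 2 on II, 2 on V and 1 on I.

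**Figure D2:**
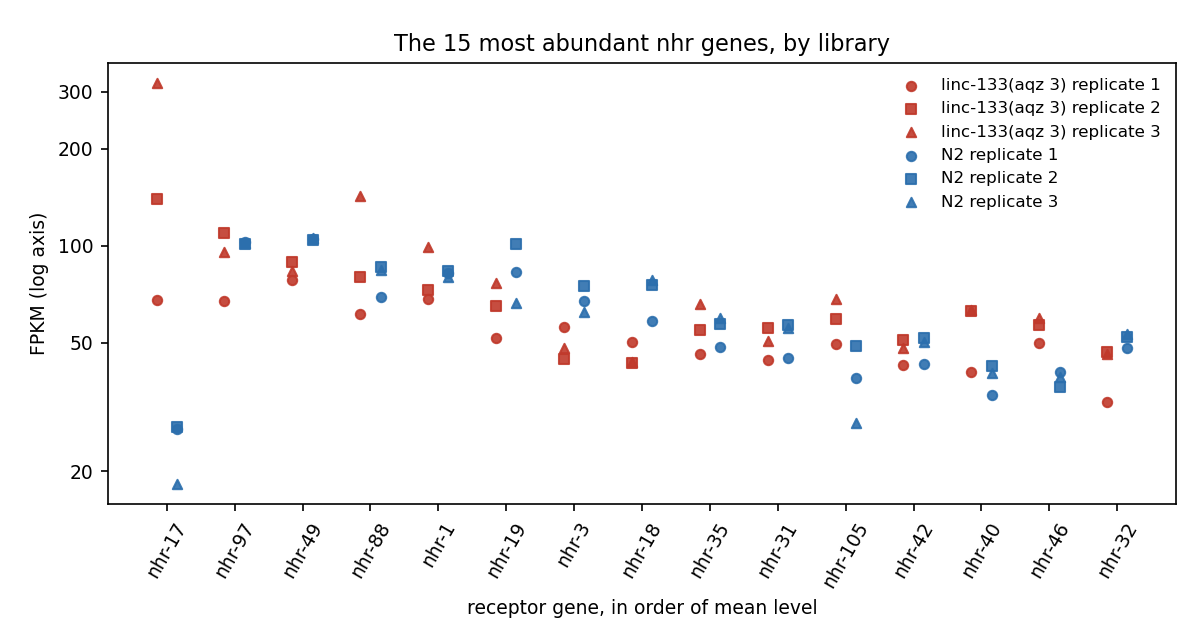
Level of the 15 most abundant receptor genes in FPKM on a log axis, 1 point per library, with the linc-133(aqz 3) libraries in red left of the N2 libraries in blue. The nhr-17 points span 67.9 to 319.7 FPKM in the mutant and 18.3 to 27.5 FPKM in N2, while most other genes have overlapping or adjacent points.

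Levels of the 188 members with a mean of at least 1 FPKM were compared between the strains with limma on log2(FPKM + 1), within a fit of all 16794 genes that met the same minimum. None of the 188 members passed an adjusted p of 0.05 over all tested genes, and none of the 16794 genes did (0.0%). The lowest adjusted p among the members was 0.141, for nhr-86. An unadjusted p under 0.05 was found for 33 of the 188 members (17.6%), against 13.7% of all tested genes and 13.8% of the tested protein-coding genes. Of these, 17 members were higher in the mutant (9.04%, against 7.22% of all tested genes and 8.2% of the protein-coding ones) and 16 were lower (8.51%, against 6.48% and 5.65%). These shares were somewhat above the background in both directions, and whether the receptors differ from it was not tested. The counts changed when single libraries were left out, which also leaves fewer libraries to fit. The higher count was 7 without mutant replicate 2, 11 without N2 replicate 2 and 7 without N2 replicate 3. The lower count was 5 without N2 replicate 2 and 7 without N2 replicate 3. Without mutant replicate 1 the counts rose, to 22 higher and 18 lower.

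The mutant and N2 libraries did not overlap in 56 of the 188 members (29.8%), 26 of them higher and 30 lower in the mutant, against 20.0% of all tested genes and 21.7% of the tested protein-coding genes. By direction, the shares were 13.8% higher and 16.0% lower among the members, 10.5% and 9.54% among all tested genes, and 12.2% and 9.52% among the protein-coding ones. This count was 67 to 87 when any 1 library was left out. Fewer libraries overlap less readily, so these counts are not comparable with that of all libraries. The median difference of the tested members was 0.04 on the log2(FPKM + 1) scale, against 0.02 over the tested protein-coding genes. The lower and upper quartiles of the members were -0.22 and 0.24. A difference of at least 1 in size on this scale was found for 2 members, nhr-17 and nhr-145 (1.06%, against 7.16% of all tested genes and 2.37% of the protein-coding ones). The median member varied little between replicates, with a coefficient of variation of 0.156 in the mutant and 0.129 in N2.

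**Figure D3:**
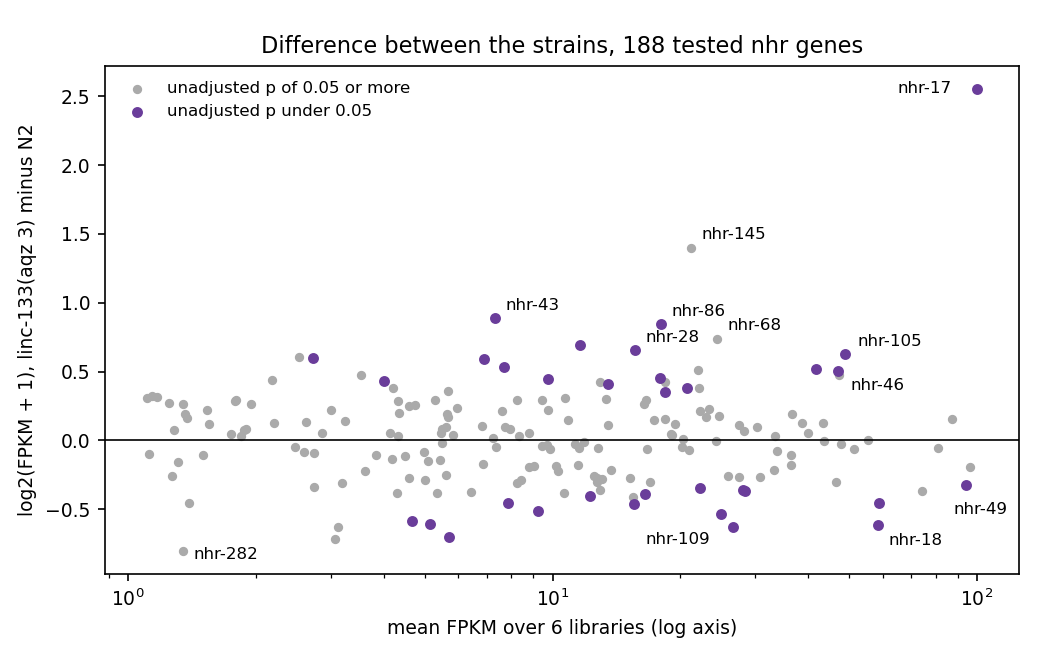
Difference between linc-133(aqz 3) and N2 on the log2(FPKM + 1) scale, plotted against the mean level in FPKM on a log axis for the 188 tested receptor genes. Purple points have an unadjusted p under 0.05 in limma; nhr-17 (2.55) stands far above the others, most of which lie within 0.5 of 0, and none passed after adjustment.

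nhr-17 had the largest difference of all members. Its mean was 175.7 ± 129.8 FPKM in the mutant and 24.3 ± 5.20 FPKM in N2 (SD, n = 3 each), a 7.24-fold ratio of means. The difference was 2.55 on the log2(FPKM + 1) scale (SE 0.53, limma adjusted p = 0.166). The lowest mutant library was more than 2 times as high as the highest N2 library, but the mutant libraries themselves differed 4.71-fold. Without mutant replicate 3 the ratio was 4.27. The order of the mutant libraries, with replicate 1 lowest and replicate 3 highest, was also that of the chaperone sum given above. nhr-17 encodes a receptor with both domains annotated, and the end of its span overlaps the start of the neighbouring neuropeptide-like gene nlp-76 on the same strand. nlp-76 measured 46.9, 71.1 and 64.1 FPKM in the mutant and 42.6, 38.7 and 41.4 FPKM in N2, a smaller difference between the strains (1.48-fold).

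nhr-86 (gene 178685, chromosome V, 2061106 to 2066850, minus strand) had the lowest p of the family. It encodes an intestinal receptor that senses a bacterial metabolite of the phenazine class and turns on defence genes. It measured 20.2, 26.1 and 23.9 FPKM in the mutant libraries, against 12.8, 11.7 and 13.2 FPKM in the N2 libraries. The libraries of a strain were close to each other, and the ratio of means was 1.87 (log2 difference 0.84, SE 0.14, limma adjusted p = 0.141). Leaving out any 1 library kept the ratio between 1.76 and 1.997. A few bases of its span overlap comt-3 on the other strand, which measured 42.5, 35.2 and 27.3 FPKM in the mutant and 37.5, 33.8 and 36.9 FPKM in N2, with overlapping strains.

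nhr-43 (gene 178121, chromosome IV, 11899590 to 11902976, plus strand) measured 9.38, 11.4 and 8.59 FPKM in the mutant libraries, against 5.23, 5.43 and 3.86 FPKM in the N2 libraries. Its ratio of means was 2.02 (log2 difference 0.89, limma adjusted p = 0.162), and again the strains did not overlap. nhr-28 measured 16.24, 21.7 and 20.4 FPKM in the mutant and 11.5, 12.6 and 11.4 FPKM in N2, a 1.64-fold ratio. nhr-46, more abundant than either, measured 50.04, 56.6 and 59.9 FPKM in the mutant and 40.6, 36.4 and 39.2 FPKM in N2, a 1.43-fold ratio. The other 5 members among the 10 with the lowest p on this side were nhr-236, nhr-182, nhr-116, nhr-12 and nhr-136, with ratios of 1.77, 1.32, 1.40, 1.60 and 1.29 in that order. nhr-105, among the 15 most abundant, measured 49.7, 59.5 and 68.5 FPKM in the mutant and 38.9, 48.9 and 28.3 FPKM in N2, with N2 replicate 2 just under the lowest mutant library. In all 33 members with an unadjusted p under 0.05 except nhr-53, the strains did not overlap.

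On the lower side the 16 members with an unadjusted p under 0.05 had smaller differences, and none of their ratios of means reached 2-fold. nhr-109 measured 19.3, 23.2 and 19.4 FPKM in the mutant libraries, against 27.5, 34.0 and 36.4 FPKM in the N2 libraries, a mutant mean 1.58-fold below that of N2 (limma adjusted p = 0.189). It lies within the span of ZK430.7 on the other strand, and since the library kit does not mark strand, reads of the 2 genes cannot be told apart where their exons meet. ZK430.7 measured 60.3, 70.3 and 69.4 FPKM in the mutant and 75.2, 77.8 and 75.7 FPKM in N2, so that its strains did not overlap either. nhr-18, the most abundant receptor of chromosome V, measured 50.4, 43.4 and 43.6 FPKM in the mutant and 58.6, 75.8 and 78.3 FPKM in N2, with the strains apart. nhr-3, on chromosome X, measured 55.8, 44.5 and 48.1 FPKM in the mutant and 67.4, 75.1 and 62.2 FPKM in N2, and here too the strains did not overlap. nhr-211 and nhr-106 are neighbours near the left end of chromosome V. nhr-211 measured 3.85, 5.31 and 3.30 FPKM in the mutant and 7.20, 7.51 and 7.08 FPKM in N2. nhr-106 measured 4.45, 3.65 and 3.57 FPKM in the mutant and 5.93, 6.96 and 6.39 FPKM in N2, and in both genes every mutant library lay below every N2 library. nhr-49, described with its list below, and nhr-94, nhr-126, nhr-92 and nhr-133 completed the 10 with the lowest p, and the mutant means of the last 4 were 1.496, 1.48, 1.67 and 1.28-fold below those of N2 in that order.

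Several of the lower members were neighbours, a grouping noticed after the values were seen and given as a description. A group of 10 receptor genes lies between 2191720 and 2235180 on chromosome V, and all 10 were tested. Of these, 8 had a lower mean on the log scale in the mutant and 5 were lower at an unadjusted p under 0.05, against 6.48% of all tested genes, with a median difference of -0.27. This group was picked because it held the most such lower members of all groups. Its count was therefore bound to be high and is no test against that share. nhr-128, nhr-103, nhr-18 and nhr-126 follow each other on the plus strand with 108, 132 and 94 bases between them. nhr-128 measured 9.83, 9.08 and 12.5 FPKM in the mutant and 14.1, 12.8 and 15.3 FPKM in N2. nhr-103 measured 25.4, 22.3 and 25.7 FPKM in the mutant and 27.4, 34.5 and 33.3 FPKM in N2. nhr-126 measured 20.9, 21.9 and 17.4 FPKM in the mutant and 24.5, 28.2 and 36.5 FPKM in N2. In each of the 4 the strains did not overlap. The next genes on the same strand, nhr-134 and nhr-96, begin 238 and 89 bases further on and had overlapping strains, at 28.2, 30.7 and 26.97 FPKM in the mutant and 24.1, 27.2 and 27.9 FPKM in N2 for nhr-134. Another group of 12 members, of which 10 were tested, lies between 451451 and 497297 on chromosome V and had a median difference of -0.26, with nhr-211 and nhr-106 among its members. Medians of the other groups with tested members had both signs and ran from -0.37 to 0.43. The 5 tested members of the group between 3844429 and 3908452 had one of 0.26. Over the whole family, 64.2% of the 173 members with a neighbour within 20 kb were tested, and 13 of these were lower in the mutant and 6 higher at an unadjusted p under 0.05. Of the 96 members further apart 77 were tested, and 3 of these were lower and 11 higher, and over all tested genes the shares were 6.48% lower and 7.22% higher. The difference between these groups of genes was not tested.

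Receptors with a described role were taken from 4 lists, 31 genes in the table of which 30 were tested. 0 of the 30 passed over all genes, and an unadjusted p under 0.05 was found for 1 higher member (nhr-86) and 2 lower members (nhr-49 and nhr-114), against 7.22% higher and 6.48% lower over all tested genes. These lists were chosen with earlier results of these data known.

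Receptors with counterparts in other animals were 10, and 9 of them reached the minimum for testing, with a median over the 10 of 13.2 FPKM against 4.50 FPKM over the other 259 members. nhr-48, a relative of nhr-8 and the dafachronic acid receptor gene daf-12, was the most abundant of them, at 20.9, 30.5 and 42.5 FPKM in the mutant and 36.7, 34.0 and 34.5 FPKM in N2. daf-12, which carries no nhr number, measured 14.1, 22.4 and 36.5 FPKM in the mutant and 21.3, 24.7 and 26.6 FPKM in N2. In both genes mutant replicate 1 was lowest and replicate 3 highest, and the strains overlapped. nhr-8, which guards against toxins and handles cholesterol, measured 17.2, 20.7 and 21.5 FPKM in the mutant and 17.3, 22.8 and 21.7 FPKM in N2. nhr-41, the worm counterpart of the testicular receptors, measured 13.98, 20.3 and 27.8 FPKM in the mutant and 20.01, 21.6 and 18.1 FPKM in N2. nhr-91, the counterpart of germ cell nuclear factor, measured 15.3, 15.5 and 13.6 FPKM in the mutant and 12.8, 12.4 and 10.5 FPKM in N2, with the strains apart and a limma adjusted p of 0.401 (unadjusted p = 0.0652). nhr-111 stayed under 1 FPKM in every library.

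The regulators of moulting and timing were present at modest levels during arrest. nhr-23, the counterpart of the ROR receptors and a driver of every larval moult, measured 4.04, 4.38 and 4.83 FPKM in the mutant libraries, against 6.48, 5.44 and 4.94 FPKM in the N2 libraries. All 3 mutant libraries of nhr-23 lay below the N2 libraries, with an unadjusted limma p of 0.128. Its difference of -0.28 had a 95% interval of -0.68 to 0.11. nhr-25, which shapes the epidermis and is needed to shed the old cuticle, measured 19.8, 28.6 and 23.9 FPKM in the mutant libraries, against 20.7, 21.3 and 19.3 FPKM in the N2 libraries, with an interval of -0.16 to 0.59. nhr-85, which helps to time the pulses of the microRNA gene lin-4, measured 5.94, 5.34 and 4.99 FPKM in the mutant and 5.65, 6.73 and 4.33 FPKM in N2. nhr-67, the counterpart of tailless, measured 8.82, 7.30 and 5.78 FPKM in the mutant and 8.50, 5.97 and 7.02 FPKM in N2, and nhr-2, an early embryonic receptor, 5.55, 4.22 and 4.38 FPKM in the mutant and 4.29, 4.31 and 3.32 FPKM in N2. nhr-6, which is needed to form the spermatheca in later larvae, measured 12.7, 14.9 and 17.3 FPKM in the mutant and 11.7, 12.3 and 8.87 FPKM in N2. All 3 mutant libraries of nhr-6 lay above the N2 libraries, with an unadjusted limma p of 0.0514. nhr-60 measured 2.66, 2.06 and 2.23 FPKM in the mutant and 2.84, 2.13 and 1.30 FPKM in N2. None of the 9 developmental receptors, nhr-31 and nhr-40 included, had an unadjusted p under 0.05. The interval of nhr-40 on the log2(FPKM + 1) scale was -0.01 to 0.96.

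**Figure D4:**
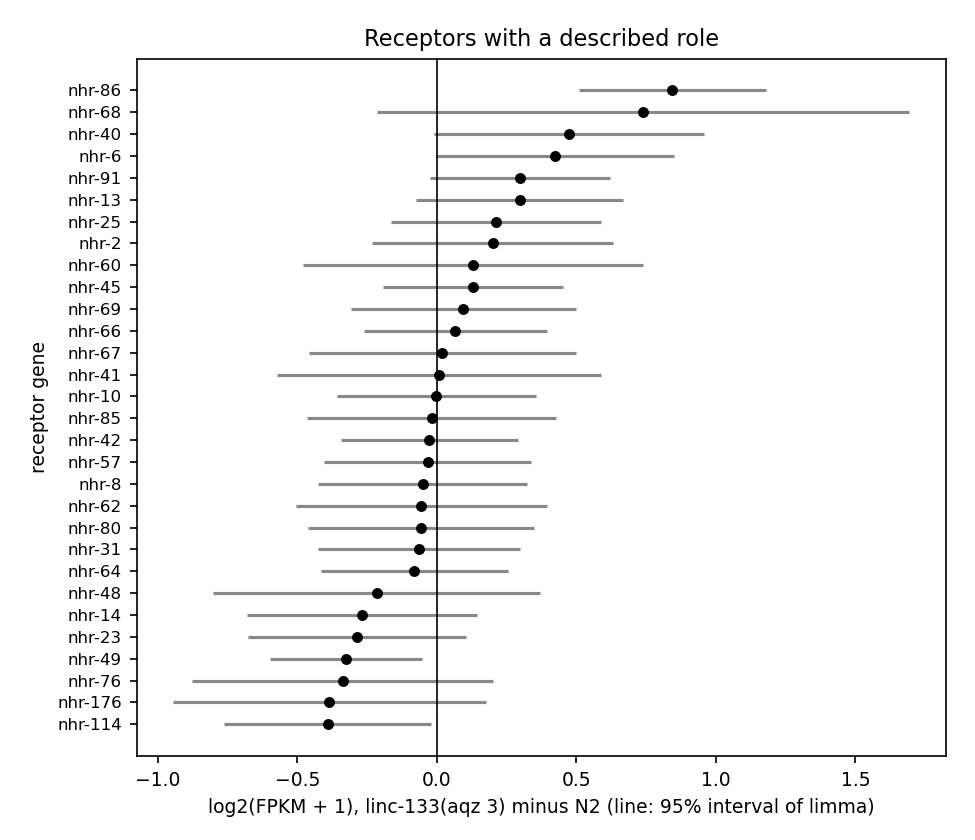
Difference between linc-133(aqz 3) and N2 on the log2(FPKM + 1) scale for the 30 tested receptors with a described role, with the 95% interval of limma as a line. The intervals of nhr-86, nhr-49 and nhr-114 leave out 0, and those of the other 27 include it.

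Receptors of fat and nutrient metabolism were all expressed, and 11 of 11 were tested. nhr-49 averaged 83.7 ± 5.29 FPKM in the mutant and 105.003 ± 1.06 FPKM in N2 (SD, n = 3 each), a log2 difference of -0.33 (SE 0.11, limma adjusted p = 0.295). Its described partners had overlapping strains. nhr-80, which acts with it on fatty acid desaturases, measured 11.6, 13.3 and 12.5 FPKM in the mutant and 10.3, 14.3 and 14.8 FPKM in N2. nhr-66, a partner in sphingolipid breakdown, measured 25.4, 32.2 and 29.5 FPKM in the mutant and 26.8, 25.8 and 30.1 FPKM in N2. nhr-13, another partner, measured 11.6, 10.4 and 9.56 FPKM in the mutant and 9.77, 7.38 and 8.08 FPKM in N2, so its mutant mean was the higher one. nhr-114, which adapts the animal to the supply of amino acids and methyl groups in its diet, measured 11.5, 14.96 and 16.35 FPKM in the mutant libraries, against 19.2, 18.4 and 18.9 FPKM in the N2 libraries, and its strains did not overlap (limma adjusted p = 0.344). nhr-62, needed for the long life of worms on restricted diets, measured 10.9, 13.1 and 9.84 FPKM in the mutant and 9.22, 13.4 and 12.9 FPKM in N2. nhr-64, nhr-69 and nhr-76 had overlapping strains, with means over the 6 libraries of 33.9, 30.3 and 2.74 FPKM.

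Known target genes of NHR-49 were read beside it. Of 8 genes in the list 7 were tested, and 0 passed over all genes. An unadjusted p under 0.05 was found for 2, fat-5 and acs-2, both with a higher mean in the mutant, against 7.22% of all tested genes. The palmitoyl-CoA desaturase gene fat-5 measured 18.7, 39.998 and 26.3 FPKM in the mutant libraries, against 12.6, 11.1 and 9.29 FPKM in the N2 libraries. The acyl-CoA synthetase gene acs-2, a marker of the fasting response, measured 46.1, 356 and 184 FPKM in the mutant libraries, against 19.03, 79.9 and 5.74 FPKM in the N2 libraries, so its libraries varied widely within both strains and overlapped between them. The stearoyl-CoA desaturase gene fat-6 measured 305, 618 and 750.4 FPKM in the mutant and 254, 323 and 445 FPKM in N2, and fmo-2 0.439, 4.33 and 1.97 FPKM in the mutant and 3.07, 2.38 and 4.91 FPKM in N2. Of the 7 tested targets 6 had a positive difference, with a median of 0.65, against 8366 of the 16794 tested genes and a median of -0.001. The strains overlapped in every tested target except fat-5. The Mediator subunit gene mdt-15, a coactivator of NHR-49, measured 77.2, 109.9 and 180.2 FPKM in the mutant and 89.1, 102 and 109.1 FPKM in N2. It is a long gene with its highest value in mutant replicate 3, and the same held for the coregulator genes cbp-1, gei-8, din-1 and sbp-1. None of the 5 coregulators had an unadjusted p under 0.05.

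nhr-10 and nhr-68 together switch on the propionate shunt, an alternative route for breaking down propionate. nhr-10 was even across libraries, at 36.6, 51.2 and 43.4 FPKM in the mutant and 42.6, 45.1 and 42.6 FPKM in N2. nhr-68 was not, at 16.7, 44.0 and 32.8 FPKM in the mutant libraries, against 25.2, 16.24 and 11.8 FPKM in the N2 libraries. Mutant replicate 1 lay within the range of N2, and N2 replicate 1 lay between the mutant libraries (limma adjusted p = 0.461). Among the shunt genes, hphd-1 measured 27.3, 56.1 and 44.5 FPKM in the mutant and 43.6, 28.6 and 18.7 FPKM in N2, hach-1 28.4, 43.9 and 37.8 FPKM in the mutant and 30.5, 27.5 and 27.7 FPKM in N2 and alh-8 1306, 1461 and 1927 FPKM in the mutant and 1574, 1932 and 1679 FPKM in N2. acdh-1 and ech-6, the first steps of the shunt, had 1 and 2 reads over all 6 libraries. hphd-1, like nhr-68, was highest in mutant replicate 2 and lowest in N2 replicate 3.

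Receptors of defence and of metal and oxygen balance were 7 in the table. Apart from nhr-86, described above, none had an unadjusted p under 0.05. nhr-42 measured 42.8, 51.1 and 48.3 FPKM in the mutant and 43.1, 51.6 and 50.1 FPKM in N2. nhr-45, which takes part in detoxification when mitochondria are impaired, measured 41.5, 44.1 and 50.9 FPKM in the mutant and 37.5, 44.7 and 42.1 FPKM in N2. nhr-14, which represses genes of iron uptake, measured 21.8, 33.1 and 29.3 FPKM in the mutant and 31.8, 33.2 and 35.6 FPKM in N2, with mutant replicate 1 lowest and overlapping strains. nhr-57, a target of the hypoxia factor HIF-1, measured 9.77, 10.4 and 8.49 FPKM in the mutant and 9.04, 11.4 and 8.99 FPKM in N2. nhr-176, which drives a cytochrome P450 response to the drug thiabendazole, measured 3.87, 4.73 and 2.37 FPKM in the mutant and 4.65, 4.62 and 5.58 FPKM in N2. In each of these 5 genes the ranges of the strains overlapped. hizr-1, the zinc sensor that used to be numbered nhr-33, is listed under its new name and measured 2.12, 4.47 and 2.67 FPKM in the mutant and 2.47, 2.93 and 2.52 FPKM in N2.

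Some receptors varied widely between libraries of the same strain. Over all tested members, 7 differed by more than 3-fold between the highest and the lowest library of a strain: nhr-17, nhr-145, nhr-37, nhr-174, nhr-172, nhr-282 and nhr-150. They were singled out after their values were seen. The strains did not overlap in nhr-17 and nhr-282 and overlapped in the other 5. nhr-145 (chromosome V, 19087723 to 19092668) measured 8.26, 43.3 and 36.6 FPKM in the mutant libraries, against 30.5, 4.43 and 3.91 FPKM in the N2 libraries. Mutant replicates 2 and 3 and N2 replicate 1 were high, and mutant replicate 1 and N2 replicates 2 and 3 were low. nhr-37 measured 0.727, 4.97 and 4.14 FPKM in the mutant libraries, against 3.75, 0.757 and 0.797 FPKM in the N2 libraries, with the same 3 libraries high and the same 3 low. nhr-145 rested on 1812 reads in the mutant and 916 in N2, whereas nhr-37 was thinner, with 235 reads in the mutant. The ratio of strain means of nhr-145 was 2.27 with all libraries and 7.05 without N2 replicate 1 (limma adjusted p = 0.534 with all 6). The hedgehog-related gene grd-3, an epidermal marker, was split in the same way, at 52.1, 255 and 216 FPKM in the mutant and 306, 50.03 and 36.8 FPKM in N2. The epidermal transcription factor gene elt-3, a marker of the same list, was not, at 41.2, 50.9 and 44.6 FPKM in the mutant and 30.8, 36.1 and 34.0 FPKM in N2. All 3 mutant libraries of elt-3 lay above the N2 libraries. dpy-7, a cuticle collagen gene of that list, was highest in replicate 1 of both strains, at 90.7, 56.8 and 39.6 FPKM in the mutant and 91.4, 42.8 and 31.6 FPKM in N2. The 6 epidermal markers summed to 201, 382 and 317 FPKM in the mutant libraries, against 454, 148 and 126 FPKM in the N2 libraries, mostly through grd-3, and their part in the pattern of the receptors was not tested. nhr-150, which was high except in N2 replicate 3, measured 2.82, 1.95 and 1.66 FPKM in the mutant and 2.23, 2.45 and 0.553 FPKM in N2.

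A further pattern was low in mutant replicates 2 and 3 and higher elsewhere. nhr-174 measured 5.38, 0.782 and 1.33 FPKM in the mutant libraries, against 2.22, 4.62 and 4.39 FPKM in the N2 libraries. nhr-172 measured 5.04, 0.945 and 1.04 FPKM in the mutant libraries, against 4.70, 3.72 and 2.96 FPKM in the N2 libraries. nhr-282 measured 1.53, 0.309 and 0.427 FPKM in the mutant and 2.09, 1.81 and 1.90 FPKM in N2. In all 3 genes mutant replicate 1 resembled the N2 libraries more than the other mutant libraries. These are weakly expressed genes, with 52 to 222 reads over the libraries of a strain, and none had an unadjusted p under 0.05.

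**Figure D5:**
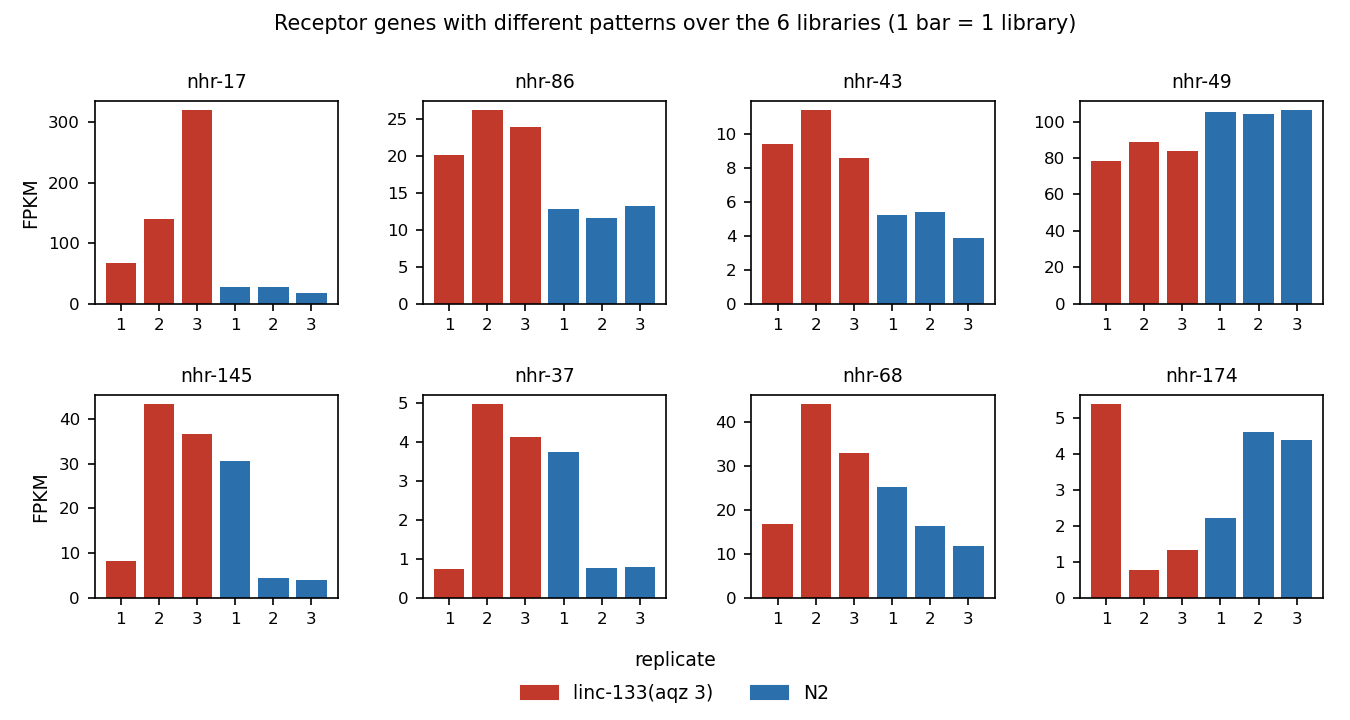
Level of 8 receptor genes in FPKM, 1 bar per library, with linc-133(aqz 3) in red left of N2 in blue. nhr-17, nhr-86, nhr-43 and nhr-49 separate the strains, whereas nhr-145 and nhr-37 are high in mutant replicates 2 and 3 and N2 replicate 1, and nhr-174 is low in mutant replicates 2 and 3.

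A few receptor genes fall outside the numbered series. Of 12 other listed genes with a receptor zinc finger or ligand-binding domain annotated, 5 were read beside the family. sex-1, which reads the number of X chromosomes, measured 24.8, 18.1 and 18.5 FPKM in the mutant and 21.6, 17.7 and 16.05 FPKM in N2, and fax-1, a receptor of interneurons, 4.11, 3.71 and 3.63 FPKM in the mutant and 4.67, 3.82 and 3.57 FPKM in N2. unc-55 and odr-7, which specify motor neurons and an olfactory neuron, did not reach the minimum for testing, with means over the 6 libraries of 0.848 and 0.569 FPKM. None of the 3 tested, daf-12 included, had an unadjusted p under 0.05.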

How the data were processed

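Whole larvae of linc-133(aqz 3) and N2 were sequenced as messenger RNA libraries, 3 per strain. The authors deposited 1 table of FPKM values per gene, and per the submitters' processing notes StringTie, STAR 2.5.2b and Bowtie 0.12.2 were used with build WBcel235, without saying which step each served. The library kit named in the labels does not mark strand, and whether counting used strand is not given in the sources used here.

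FPKM multiplied by gene length fell on whole multiples of 1 step per library for 100.0% of 131954 values above 0, within 0.01 of a whole number, which gave 16108063 to 18556695 recovered reads per library. The authors' scaling implied totals 0.900 to 1.12 times these. The upper limit for members without a read covers counting error only. The limma intervals come from the spread between libraries.

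Strains were compared on log2(FPKM + 1) by limma 3.58.1 (R 4.3.3) with trend and robust moderation, over 16794 genes averaging 1 FPKM or more, with Benjamini-Hochberg adjustment over all of them and a threshold of 0.05; fold changes on this scale understate those of low genes. An exact permutation test of 3 against 3 libraries cannot go below p = 0.1, so none was used. All 269 receptor genes matched RefSeq by gene ID.

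Genes named are the 15 most abundant members, the 10 with the lowest p in each direction, and those of the role and pathway lists; others are said to be chosen after their values were seen. Members and lists were chosen with earlier results of these data known. Replicate numbers are shared by the strains, but deviations of same-numbered libraries correlated at 0.0162, -0.0344 and 0.0288, so the numbers were not taken as pairs. Alternatives were other pseudocounts, filters and moderation, voom on the recovered reads, rescaling, and leaving out each library.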

Additional observations from a re-analysis of the deposited data

How the results depend on the processing

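The count of genes past an adjusted p of 0.05 was 0 with limma, 1 with a filter of at least 10 recovered reads, 23 without trend and robust moderation, 3 with voom on recovered reads, 301 with voom and a quality weight per library, and 1 among protein-coding genes fitted alone; the last 2 were added after seeing the data. Receptor genes passing were 0 in all of these except voom with quality weights, where 3 passed: nhr-17, nhr-86 and nhr-43, with log2 differences of 2.48, 0.95 and 1.05. Those weights were 0.570, 0.937 and 0.424 in the mutant libraries and 0.810, 3.12 and 1.75 in the N2 libraries. Across the 18 settings the adjusted p ran from 0.0176 to 0.463 for nhr-17, from 0.0244 to 0.414 for nhr-86 and from 0.0399 to 0.460 for nhr-43. A minimum of 10 FPKM in place of 1 left 90 receptor genes.

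Leaving out each library in turn, the members past the adjusted threshold stayed between 0 and 0 and so did the count over all genes. Members with an unadjusted p under 0.05 numbered 7 to 22 higher and 5 to 18 lower in the mutant, those whose strains do not overlap 67 to 87, and the median difference was between -0.0047 and 0.051. Non-overlap is easier to reach with fewer libraries. With the replicate number as a block, no gene passed, and 13 members were higher and 11 lower at an unadjusted p under 0.05. Whether same-numbered libraries were handled together is not given in the sources used here, and correlations this small cannot settle it. The highest correlation of deviations was 0.0518, between mutant replicate 2 and N2 replicate 1. Of 55 named members tested, 19 changed the sign of their difference under some setting, all with a size of at most 0.21, and none of these was among the 20 with the lowest p. The cause of these changes was not tested. Members with a mean under 1 FPKM were left out of the main fit. A filter of at least 10 reads tested 207 members, with 22 higher and 19 lower at an unadjusted p under 0.05. With no filter 263 members were tested, with 17 higher and 18 lower. In both settings 0 members passed after adjustment, and shares over all genes were not counted for these filters.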
